A study of Mus musculus with 6 samples.

Results

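The genes described here code for carriers that move amino acids, and a few related small molecules, across the plasma membrane and the membranes of lysosomes. They were taken as the protein-coding mouse genes whose symbols begin with Slc1a, Slc3a, Slc6a, Slc7a, Slc36a, Slc38a or Slc43a followed by a number. This gave 64 of the 35905 genes to which transcripts could be matched, and 30 of the 13247 genes with enough counts to be tested. One of the 64, Slc7a6os, fits the rule by its symbol but codes for a nuclear import factor related to yeast Iwr1 and not for a carrier, so its values are given apart.

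RNA was sequenced from EO771-tdT-Parental and EO771-tdT-LM2, called Parental and LM2 here, with 3 libraries of each. Both are labelled as mouse breast cancer cells of genotype WT, and both carry the tag tdT in their names. The titles of the 3 Parental libraries also hold the tag Ac6, which the labels leave unexplained. EO771 is a mammary tumour line of the C57BL/6 mouse strain. Flasks were kept for 48 h, to about 75% confluence, in RPMI 1640 that contained 10% serum from fetal calves. How LM2 was derived, and whether either line is 1 clone, is not given in the sources used here. Whether the 3 libraries of a line are separate cultures is not stated either. The p-values therefore rest on the spread among these 6 samples alone, and that spread may be technical.

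Depth was 33922699 to 45849019 estimated counts per library. Krt8 and Vim, an epithelial and a mesenchymal intermediate filament gene, averaged 420 and 3900 CPM (counts scaled to a common library size) in Parental and 568 and 4776 in LM2. Epcam, an epithelial adhesion gene, was at 0.154 CPM in Parental and 15.0 in LM2, while Krt18, Krt19 and Cdh1 were too low to be tested. Of 7 leukocyte genes 1 was high enough to be tested, the myeloid gene Lyz2, which was lower in LM2 (2.51 CPM in Parental and 0.831 in LM2). The 7 summed to 2.62 to 2.95 CPM in Parental and 0.955 to 1.31 in LM2, most of it Lyz2. The macrophage gene Adgre1 was at 0 in every library. The 5 fibroblast genes summed to 128 to 131 CPM in Parental and 172 to 193 in LM2, most of it Pdgfra. Col1a2, of the same list, was lower in LM2 (0.926 CPM in Parental and 0.232 in LM2). The 4 endothelial genes summed to 3.40 to 4.19 CPM in Parental and 4.12 to 4.60 in LM2. The part of these genes in the results below was not tested.

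Amino acid carriers fall into families by structure and by the ion or substrate that drives them. A heteromeric transporter joins a heavy chain, such as CD98hc from Slc3a2, to a light chain of the Slc7 family. LAT1 from Slc7a5 takes up leucine and other large neutral amino acids in exchange for amino acids already in the cell, and the sodium-coupled carriers ASCT2 and SNAT2 bring in the glutamine that can be exchanged. Lysosomal carriers report amino acid supply to the kinase complex mTORC1, and the transcription factor ATF4 raises many carrier genes when amino acids are short.

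The ATF4 composite element, searched on both strands as TGATGNAA, occurs in RefSeq promoter windows of 3 members, and 1 window of each is shown. All 3 of these genes were higher in LM2, as were 11 of the 30 tested members and 31.4% of all tested genes. The call of Slc7a11 did not hold in every setting, as given below. The windows were picked for display with these directions known. Each window runs from 250 bases before to 50 bases after an annotated start and is printed 5′ to 3′ on the gene's strand in build GRCm38.p6, with matches on either strand in capitals. The windows are chr3:50443564-50443863 (minus strand) for Slc7a11, chr11:20332664-20332963 (minus strand) for Slc1a4 and chr14:54417895-54418194 (minus strand) for Slc7a7.
Slc7a11: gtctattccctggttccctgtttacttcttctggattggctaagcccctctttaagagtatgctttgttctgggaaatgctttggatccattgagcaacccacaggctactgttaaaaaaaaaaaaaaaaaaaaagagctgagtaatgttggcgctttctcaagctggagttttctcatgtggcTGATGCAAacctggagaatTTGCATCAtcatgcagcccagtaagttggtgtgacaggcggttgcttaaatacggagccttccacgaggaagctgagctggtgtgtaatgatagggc
Slc1a4: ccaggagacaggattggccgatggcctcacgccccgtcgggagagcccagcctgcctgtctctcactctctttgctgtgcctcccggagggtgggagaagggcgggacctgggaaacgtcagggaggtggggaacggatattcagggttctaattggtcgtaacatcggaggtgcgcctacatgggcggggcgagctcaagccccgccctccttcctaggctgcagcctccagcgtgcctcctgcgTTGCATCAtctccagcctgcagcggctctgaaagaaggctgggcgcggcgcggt
Slc7a7: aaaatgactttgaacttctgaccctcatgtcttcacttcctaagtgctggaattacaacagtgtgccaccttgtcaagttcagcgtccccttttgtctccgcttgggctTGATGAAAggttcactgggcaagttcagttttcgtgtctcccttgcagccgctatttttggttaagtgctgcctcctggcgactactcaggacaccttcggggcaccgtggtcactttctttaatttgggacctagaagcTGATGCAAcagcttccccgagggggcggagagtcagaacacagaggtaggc
In Slc7a11, which codes for the cystine and glutamate exchanger xCT, matches begin 66 and 47 bases before the start, on opposite strands. In Slc1a4, which codes for the serine and alanine exchanger ASCT1, the match begins 4 bases before the start. Slc7a7 codes for the light chain y+LAT1, and this window, 1 of the 5 listed for it, has matches 141 bases and 1 base before the start. A second Slc7a7 window, chr14:54417653-54417952, overlaps it and holds the latter match again. The letters occur in 4 of the 31 windows of members and in 1273 of all 32544 windows of this length, or 3.91%. A gene with several windows has more chances to match. Windows were found for 20 of the 30 tested members and those without one included Slc1a5, Slc38a1, Slc38a3, Slc6a6, Slc6a8, Slc7a2, Slc7a3, Slc7a4 and Slc7a5. An E-box, CACGTG, occurs in 4 members (Slc1a7, Slc36a1, Slc38a7 and Slc7a14), in 4 of the 31 windows, and in 7.17% of all windows. The core of the antioxidant response element, TGACNNNGC, occurs in 5 members (Slc36a1, Slc38a2, Slc6a9, Slc7a1 and Slc7a6), in 7 of the 31 windows, and in 12.4% of all windows. Higher members such as Slc38a2 and Slc6a9, and lower ones such as Slc3a2 and Slc7a6, have windows without the ATF4 element. Whether any of these motifs goes with the direction of change was not tested. The matches are descriptions of letters in a window and not of bound sites.

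The single comparison of the design, LM2 against Parental, split the carriers in both directions. With the quasi-likelihood test of edgeR, p-values adjusted by Benjamini-Hochberg over all tested genes and a threshold of 0.05, 11 of the 30 tested members were higher in LM2, 7 were lower and 12 did not pass. Over all tested genes the test called 62.4%, with 31.4% higher and 31.1% lower, so the share of members called, 60%, was close to that background. The median log2 fold change of the tested members was 0.11, against -0.004 for all tested genes. The libraries of the lines did not overlap for 20 members, against 67% of all tested genes. Leaving out Slc7a6os gives 11 higher and 6 lower among 29. Among the 21 members that reached 5 CPM in the line where they were higher, 7 were higher, 7 were lower and 7 did not pass, and their median log2 fold change was -0.001, so the median of 0.11 rests on members of low counts. In these bulk libraries a smaller share of cells that express a gene and less of its RNA per cell cannot be told apart.

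Most changes were small. The called members with an absolute log2 fold change over 1 were 3 of the 30 tested, Slc1a7, Slc6a4 and Slc7a4, a share near the 8.61% of all tested genes called with a change of that size. None of the 3 was above 3 CPM in either line. The remaining 34 members had too few counts to be tested, and none of them averaged more than 0.202 CPM (Slc38a11) in a line. No count at all was seen for 9 of them in any library, where 3 counts would be 0.0657 to 0.0888 CPM, and no more than 47 counts over all 6 libraries for the other 25.

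**Figure D1:**
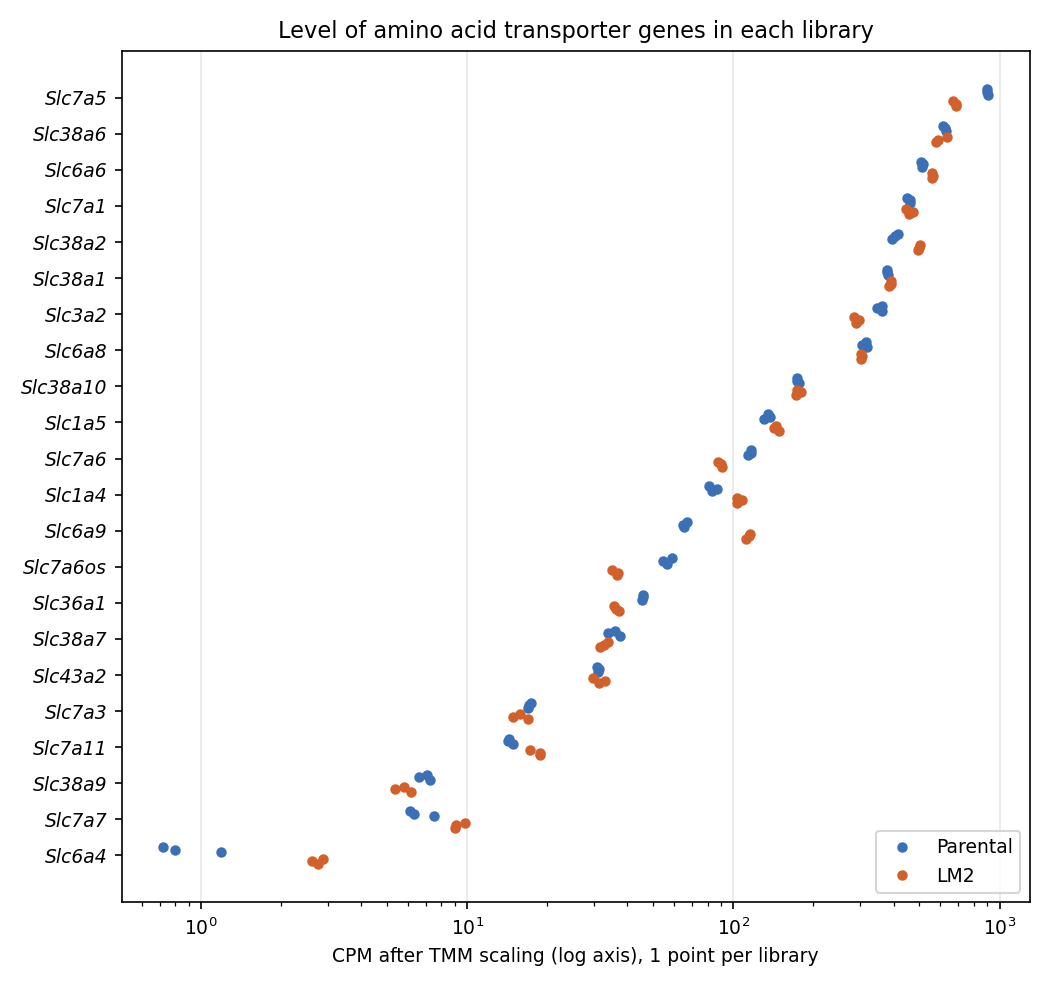
Level of Slc6a4 and of each member that reached 5 CPM in either line, in CPM after TMM scaling on a log axis, with 1 point per library (blue Parental, orange LM2). Slc7a5 lies highest in every library, and the colours stand apart most clearly for Slc6a9, Slc7a6os and Slc6a4.

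The heavy chain and its main light chains were lower in LM2. Slc7a5, the LAT1 light chain, was at 908.9, 895.0 and 893.7 CPM in Parental replicates 1 to 3 and at 684.6, 685.1 and 666.0 in LM2. Every LM2 library was below every Parental library. The log2 fold change was -0.41 ± 0.02 (SE), or 1.33-fold lower, with an adjusted p of 9.65e-13 by edgeR. Slc3a2, the CD98 heavy chain that brings LAT1 to the cell surface, was at 362.8, 346.8 and 361.6 CPM in Parental and 288.2, 297.6 and 283.7 in LM2. Again the lines did not overlap, and the gene was 1.23-fold lower (log2 fold change -0.30 ± 0.03, adjusted p = 1.25e-09 by edgeR). Slc7a6, the y+LAT2 light chain, which exchanges cationic for neutral amino acids, was at 113.9, 116.4 and 116.3 CPM in Parental and 91.0, 89.5 and 87.8 in LM2. It was 1.29-fold lower with no overlap (log2 fold change -0.37 ± 0.03, adjusted p = 2.04e-10 by edgeR).

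The 2 low light chain genes that could be tested went the other way. Slc7a7, whose product y+LAT1 exports arginine and lysine, was at 7.47, 6.31 and 6.10 CPM in Parental and 8.97, 9.07 and 9.77 in LM2. It was 1.40-fold higher with no overlap (log2 fold change 0.48 ± 0.09, adjusted p = 1.15e-04 by edgeR). Slc7a11, the xCT light chain that imports cystine for glutathione synthesis, was at 14.9, 14.2 and 14.4 CPM in Parental and 18.8, 18.7 and 17.2 in LM2. It was 1.25-fold higher with no overlap (log2 fold change 0.33 ± 0.06, adjusted p = 4.47e-05 by edgeR), but with effective transcript lengths as an offset its log2 fold change was 0.16 and the adjusted p 0.126. The other 6 light chain genes of the rule were not tested. Among them Slc7a8, the LAT2 light chain, had 1 count in Parental and 0 in LM2, and Slc7a10, the light chain Asc-1, had 0 in every library.

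TPM values, which are scaled for transcript length as well as depth, allow the genes to be set beside each other. Slc7a5 averaged 403 ± 4.08 TPM (SD, n = 3) in Parental and 309 ± 3.73 in LM2, the highest level of any member in both lines. Slc3a2 came next, at 329 ± 7.33 and 276 ± 10.4 TPM. The light chains that pair with Slc3a2 summed to 485 ± 5.88 TPM in Parental and 386 ± 5.07 in LM2. Their sum over the TPM of Slc3a2 was 1.46, 1.49 and 1.47 in Parental and 1.42, 1.35 and 1.42 in LM2. The ratio was lower in all 3 LM2 libraries. Slc7a5 made up 83.1% ± 0.579 of light chain TPM in Parental and 80.3% ± 0.0956 in LM2, and Slc7a6 15.1% ± 0.765 and 16.6% ± 0.227.

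**Figure D2:**
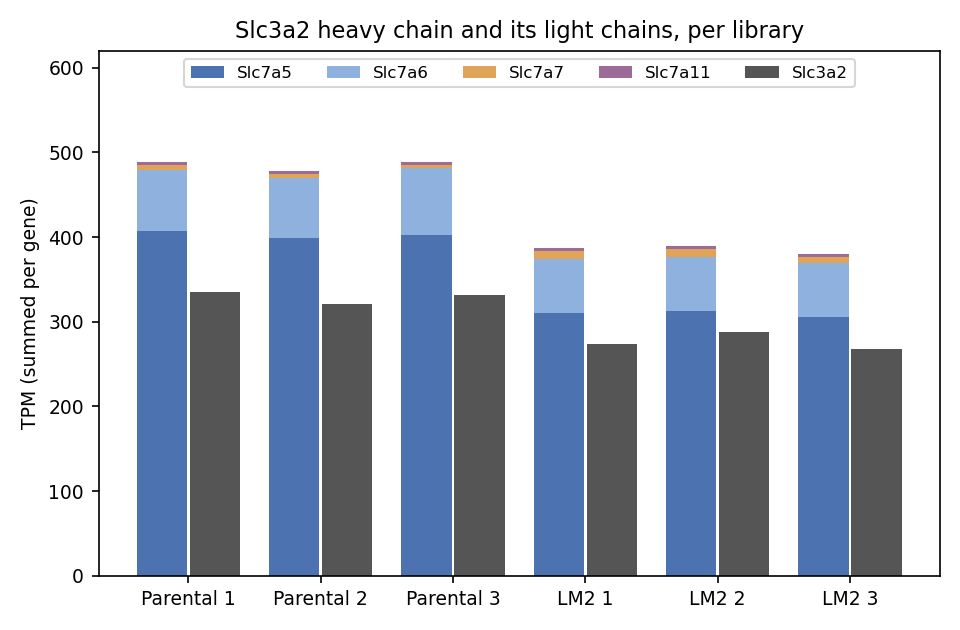
Summed TPM of the light chain genes Slc7a5, Slc7a6, Slc7a7 and Slc7a11 (stacked bars) beside the TPM of the heavy chain gene Slc3a2 (dark bars) in each library. Both bars are lower in the 3 LM2 libraries, and Slc7a5 fills most of each stack.

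Cationic amino acid carriers differed little. Slc7a1 codes for CAT1, the main uptake route of arginine and lysine in most cells, and was at 459, 462 and 451 CPM in Parental and 456, 472 and 444 in LM2. The lines overlapped, and the 95% interval of the log2 fold change ran from -0.05 to 0.05. Slc7a3, which codes for the related carrier CAT3, was at 16.9, 17.0 and 17.3 CPM in Parental and 16.8, 14.8 and 15.8 in LM2. Its LM2 libraries were the lower ones, with a log2 fold change of -0.11 (95% interval -0.23 to 0.01) that did not pass, while without LM2 replicate 1 it passed (adjusted p = 0.0304 by edgeR). Slc7a2 (CAT2) and the lysosomal relative Slc7a14, with means of 0.452 and 0.723 CPM in Parental and 0.586 and 0.860 in LM2, overlapped and did not pass. Slc7a4, a relative with no clear transport activity, had 23 counts over the Parental libraries and 52 over the LM2 libraries. Scaled for depth that is a ratio of 2.59, with an exact 95% interval of 1.56 to 4.44 that covers counting error only. It passed (adjusted p = 0.0109 by edgeR), but not without Parental replicate 1 (0.0541) or LM2 replicate 3 (0.0643).

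All 3 tested members of the SLC1 family, which holds sodium-coupled glutamate carriers and neutral amino acid exchangers, were higher in LM2. Slc1a4, the ASCT1 gene, was at 83.2, 86.9 and 81.0 CPM in Parental and 103.3, 107.9 and 102.8 in LM2. The lines did not overlap, and the gene was 1.25-fold higher (log2 fold change 0.32 ± 0.03, adjusted p = 1.40e-08 by edgeR). Slc1a5 codes for ASCT2, a main glutamine carrier of tumour cells, and was at 130.7, 137.1 and 134.4 CPM in Parental and 148.3, 141.8 and 144.6 in LM2. Its log2 fold change was 0.11 ± 0.03 with no overlap (adjusted p = 0.00124 by edgeR). That call was lost when only protein-coding transcripts were counted (log2 fold change 0.07, adjusted p = 0.213) and with effective lengths as an offset (0.04, adjusted p = 0.441). Slc1a7, the glutamate carrier gene EAAT5, had 6 counts over the Parental libraries and 61 over the LM2 libraries. The ratio scaled for depth was 11.7 (exact 95% interval 5.06 to 33, counting error only), and edgeR gave an adjusted p of 6.55e-06. It reached the filter on low counts through the LM2 libraries alone, as did Slc7a4 and Slc7a2. Without Slc1a7 and Slc7a4, 9 of 28 tested members were higher and 7 lower. The other glutamate carriers of the family, Slc1a1, Slc1a2, Slc1a3 and Slc1a6, were too low to be tested.

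Slc38a2 rose among the sodium-coupled neutral carriers while its close relative Slc38a1 moved little. Slc38a2 codes for SNAT2, a carrier of small neutral amino acids that cells raise when amino acids are short, and was at 394.7, 405.7 and 416.2 CPM in Parental and 494.7, 497.2 and 502.9 in LM2. It was 1.23-fold higher with no overlap (log2 fold change 0.30 ± 0.03, adjusted p = 6.58e-10 by edgeR). Slc38a1, the SNAT1 gene, was at 381, 377 and 376 CPM in Parental and 385, 390 and 390 in LM2. The LM2 libraries lay above the Parental ones, but the log2 fold change of 0.04 did not pass (95% interval -0.01 to 0.09). Slc38a10, a broadly expressed member, was at 176, 174 and 173 CPM in Parental and 172, 180 and 174 in LM2, and its 95% interval ran from -0.05 to 0.06 on the log2 scale.

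The lysosomal members of the SLC38 family were slightly lower, with calls that did not hold in every setting. Slc38a9 codes for an arginine sensor of the lysosome that signals to mTORC1 and was at 7.23, 6.61 and 7.06 CPM in Parental and 6.17, 5.37 and 5.76 in LM2. The lines did not overlap (log2 fold change -0.27 ± 0.10, adjusted p = 0.0203 by edgeR). With effective lengths as an offset its log2 fold change was 0.006, and the adjusted p was 0.0603 with DESeq2, 0.0763 without Parental replicate 1, 0.0519 without Parental replicate 3 and 0.0806 without LM2 replicate 2. Slc38a7, which exports glutamine and asparagine from lysosomes, was at 37.5, 33.8 and 35.8 CPM in Parental and 31.6, 32.6 and 33.8 in LM2. Its lowest Parental library stood just above its highest LM2 library (log2 fold change -0.13 ± 0.05, adjusted p = 0.026 by edgeR). The adjusted p was 0.0684 with DESeq2, 0.16 without Parental replicate 1, 0.0568 without Parental replicate 3 and 0.0766 without LM2 replicate 1. Slc38a3, the glutamine carrier SNAT3, was low, with means of 1.13 CPM in Parental and 1.76 in LM2. It passed (log2 fold change 0.64 ± 0.23, adjusted p = 0.02 by edgeR), but not without Parental replicate 3 (0.0709), LM2 replicate 1 (0.0856) or LM2 replicate 3 (0.0538). Slc38a4, which codes for SNAT4, averaged 0.419 CPM in Parental and 0.550 in LM2 and did not pass.

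The counts of Slc38a6, a member with no well established substrate, rest on 1 transcript. The gene was at 626.9, 622.6 and 610.7 CPM in Parental and 578.4, 586.7 and 636.3 in LM2. LM2 replicate 3 was above all Parental libraries and the other LM2 libraries were below them, so the lines overlapped and the gene did not pass (log2 fold change -0.05). It passed as lower without LM2 replicate 3 (log2 fold change -0.09, adjusted p = 0.00218 by edgeR) and with no filter on low counts (-0.07, adjusted p = 0.0213). The transcript Slc38a6-208 held 97.5% of its counts in Parental and 96.7% in LM2, and 78.0% of the 31-base words of that transcript also occur in transcripts of 127 other genes. With this transcript left out, the gene averaged 11.6 ± 0.598 TPM in Parental and 15.6 ± 1.10 in LM2, against 249 and 248 with it. It then passed as higher, with a log2 fold change of 0.37 and an adjusted p of 8.41e-05 by edgeR.

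Slc36a1 and Slc43a2 were the tested members of their families. Slc36a1 codes for PAT1, which carries small amino acids with protons out of lysosomes, and was at 45.2, 45.6 and 45.6 CPM in Parental and 37.2, 36.1 and 35.6 in LM2. It was 1.25-fold lower with no overlap (log2 fold change -0.33 ± 0.04, adjusted p = 3.95e-07 by edgeR), while with effective lengths as an offset the log2 fold change was -0.19 and the adjusted p 0.4. Slc43a2, the gene of the facilitative leucine and phenylalanine carrier LAT4, was at 30.99, 31.35 and 30.80 CPM in Parental and 31.26, 33.03 and 29.58 in LM2. The lines overlapped, and the 95% interval of the log2 fold change was -0.09 to 0.11.

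Slc6a9 had the largest rise among members of at least 5 CPM. It codes for the sodium- and chloride-coupled glycine carrier GlyT1 and was at 65.4, 64.5 and 66.8 CPM in Parental and 112.0, 114.9 and 115.4 in LM2. The lines were far apart, and the gene was 1.74-fold higher (log2 fold change 0.80 ± 0.03, adjusted p = 1.12e-15 by edgeR). Of its 31-base words 26.1% also occur in transcripts of Ccdc24, a gene that was at 2.71 CPM in Parental and 2.10 in LM2 and did not pass. The transcript Slc6a9-201 held 80.9% of the counts of Slc6a9 in Parental and 81.3% in LM2. Of the words of that transcript 42.6% also occur in transcripts of 3 other genes. The other tested amino acid carrier of the SLC6 family, Slc6a20b, a close relative of an imino acid carrier gene, averaged 0.426 CPM in Parental and 0.626 in LM2 and did not pass. Of its 31-base words 31.5% also occur in other genes. Slc6a14, a broad amino acid carrier that some breast tumours express, had no count in any library.

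SLC6 members that carry taurine, creatine or monoamines showed a small rise, no call and a rise at a low level. Slc6a6, the taurine carrier gene, was at 512.5, 516.1 and 508.2 CPM in Parental and 558.5, 563.5 and 557.9 in LM2. The lines did not overlap (log2 fold change 0.13 ± 0.02, adjusted p = 3.77e-05 by edgeR). Slc6a8, the creatine carrier gene, was at 318, 304 and 315 CPM in Parental and 303, 305 and 301 in LM2. The lines overlapped, and the log2 fold change was -0.04 (95% interval -0.10 to 0.01). Slc6a8 passed as lower with no filter on low counts (log2 fold change -0.07, adjusted p = 0.0313) and with effective lengths as an offset (-0.08, adjusted p = 0.0225). Slc6a4, which codes for the serotonin carrier, was at 1.19, 0.799 and 0.719 CPM in Parental and 2.75, 2.61 and 2.88 in LM2. It was 3.02-fold higher with no overlap (log2 fold change 1.59 ± 0.22, adjusted p = 1.59e-06 by edgeR), on 112 and 293 counts.

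**Figure D3:**
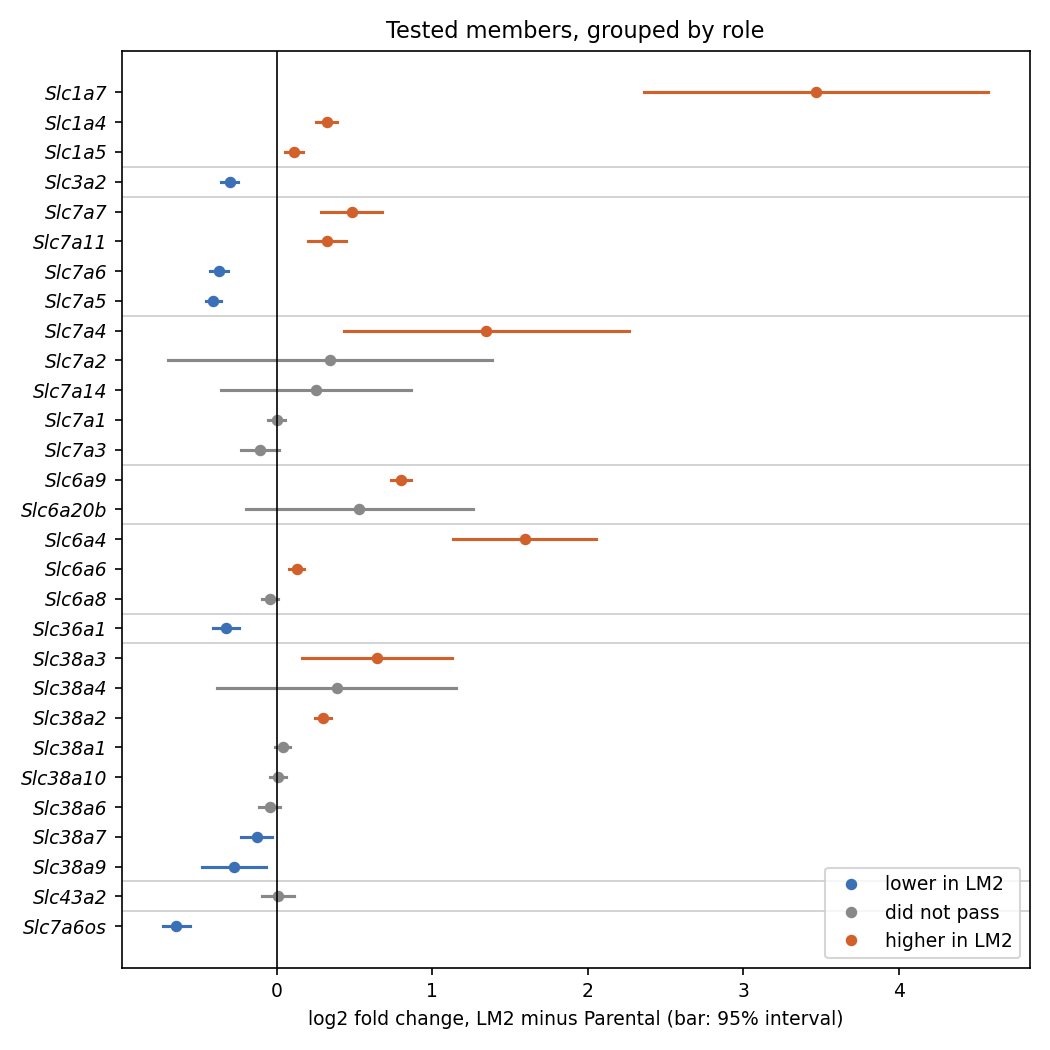
Log2 fold change of 29 tested members, LM2 minus Parental, grouped by role between grey lines, with bars for the 95% interval (orange higher, blue lower, grey did not pass). The SLC1 members at the top lie right of 0, the heavy chain and its light chains fall on both sides, and the wide bars belong to genes of few counts.

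Seen per length, Slc7a5 and Slc3a2 stood at the head of the members in both lines. After them, and leaving aside Slc38a6, Slc6a6 stood at 169 ± 4.72 TPM in Parental and 197 ± 4.62 in LM2. Slc6a8 was above Slc38a2 in Parental (146 ± 2.55 and 132 ± 3.20 TPM), and Slc38a2 was above Slc6a8 in LM2 (166 ± 2.50 and 142 ± 2.56). Slc38a1, Slc7a1 and Slc38a10 lay together, at 96.0 ± 1.12, 97.9 ± 0.981 and 95.3 ± 2.23 TPM in Parental and 103 ± 2.49, 99.5 ± 3.06 and 101 ± 3.40 in LM2, and their order was within the spread between libraries. The TPM of all members summed to 2108 ± 19.5 in Parental and 2038 ± 18.6 in LM2. Included were Slc7a6os, which is not a carrier, at 74.7 TPM in Parental and 48.9 in LM2, and Slc38a6 at 249 and 248. Slc7a5 made up 19.1% ± 0.124 of that sum in Parental and 15.2% ± 0.213 in LM2.

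Several of the lower members lie on chromosome 8, where most tested genes were lower. Over the 702 tested genes of chromosome 8 the median log2 fold change was -0.31 and 64.5% were called lower. The 5 tested members there were Slc7a5, Slc7a6, Slc7a6os and Slc38a7, all 4 lower, and Slc7a2, which did not pass. Slc7a6os was at 56.1, 54.4 and 58.8 CPM in Parental and 36.6, 36.8 and 34.9 in LM2. It was 1.56-fold lower with no overlap (log2 fold change -0.65 ± 0.04, adjusted p = 8.36e-12 by edgeR). The 20 tested genes nearest to Slc7a6, 10 on each side, had a median log2 fold change of -0.35, close to the -0.37 of Slc7a6 itself. Around Slc7a5 that median was -0.18, with 14 of the 20 below 0, against -0.41 for Slc7a5.

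Chromosome 4 went the other way, with a median log2 fold change of 0.39 over 829 tested genes and 73.6% called higher. Both tested members there, Slc6a9 and Slc1a7, were higher, but Slc1a7 reached the filter on low counts through the LM2 libraries alone. The 20 genes nearest to Slc6a9 had a median of 0.37 against 0.80 for Slc6a9. With the members on chromosomes 4 and 8 set aside, 9 of 23 were higher and 3, Slc3a2, Slc36a1 and Slc38a9, were lower. The 9 include Slc7a4, which also reached the filter through the LM2 libraries alone. Among the 11716 tested genes on the other chromosomes 29.4% were higher and 30.9% lower. Slc3a2 lies on chromosome 19, where the median was 0.07, and its 20 nearest tested genes had a median of -0.05. What part the level of the whole chromosome has in the change of a member was not tested.

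**Figure D4:**
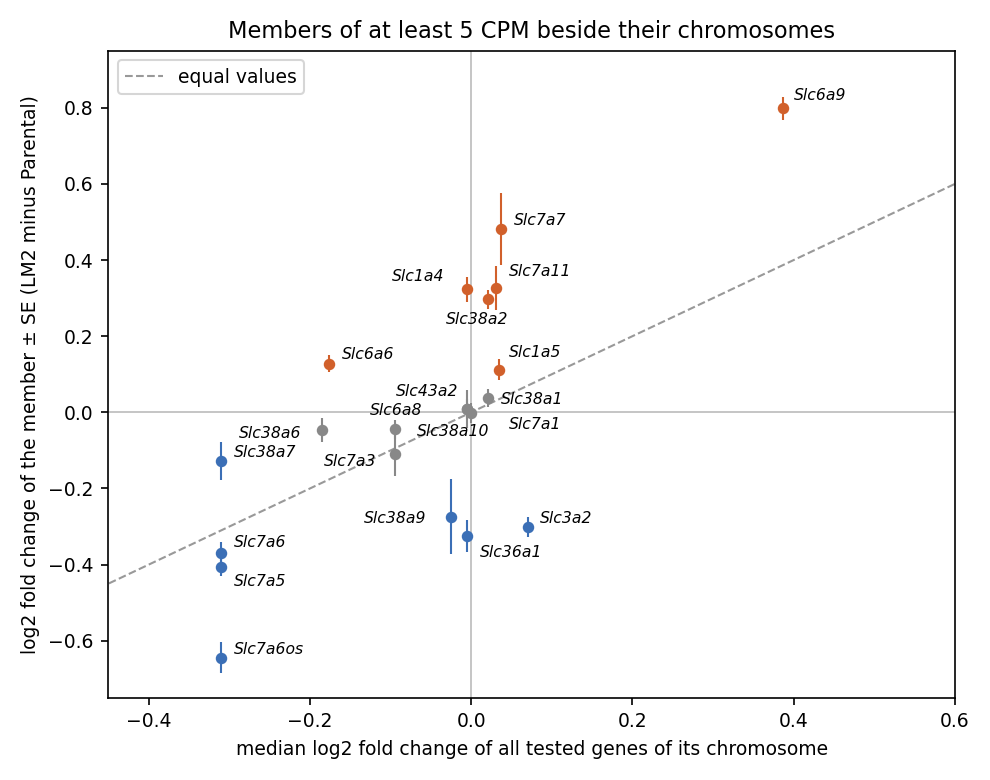
Log2 fold change of each member of at least 5 CPM (vertical axis, bars ± SE) against the median over all tested genes of its chromosome (horizontal axis), with orange for higher, blue for lower and grey for members that did not pass. Slc7a5, Slc7a6 and Slc7a6os lie at the left with chromosome 8, Slc6a9 at the right with chromosome 4, and Slc3a2 lies low on a chromosome whose median is 0.07.

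Transcripts within a gene bear on some of these values. For Slc1a5 the coding transcript Slc1a5-201 held 46.8% of the gene's TPM in Parental and 47.5% in LM2, and a retained-intron transcript, Slc1a5-202, had 2277, 2042 and 2403 counts in Parental and 2193, 2001 and 2564 in LM2. For Slc7a5, by contrast, 1 coding transcript held 98.3% of TPM in Parental and 98.6% in LM2, and none of the gene's 31-base words occurs in another gene. The Slc6a8 transcript Slc6a8-206, chosen after its values were seen, had 108, 459 and 420 counts in Parental and 0, 0 and 0 in LM2, within a gene total that did not pass. For Slc7a7, 5.91% of its words are shared with Oxa1l, which was lower in LM2 (51.6 and 45.2 CPM). For Slc38a9, protein-coding transcripts held 20.4% of the gene's TPM in Parental and 14.8% in LM2. Its transcript Slc38a9-202, annotated for nonsense-mediated decay, held 41.2% and 41.0% of TPM but 8.56% and 10.1% of counts.

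The authors' deposited table of fold changes holds 22 of the members, and its values were close to those computed here for the main genes. In the authors' deposited table Slc7a5 is at -0.41, Slc3a2 at -0.31, Slc7a6 at -0.36, Slc38a2 at 0.30 and Slc6a9 at 0.74. The largest departures among members of at least 5 CPM in the authors' deposited table were Slc43a2 at 0.21, Slc38a9 at -0.46, Slc7a11 at 0.17 and Slc36a1 at -0.18. Slc1a5 is at 0.04 in the authors' deposited table, the value the offset for effective lengths also gave. With that offset Slc7a11 was at 0.16 and Slc36a1 at -0.19, near their deposited values, but Slc38a9 was at 0.006, far from its own.

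Genes around the carriers were counted from 7 lists, of which 43.8% to 81.8% of the tested members were called, against 62.4% of all tested genes. Of 24 genes of the amino acid response driven by ATF4, 21 were tested, of which 8 were higher, 5 lower and 8 did not pass, with a median log2 fold change of -0.02. Those higher included Nupr1, a stress-induced chromatin protein gene (10.9 CPM in Parental and 20.1 in LM2), Sesn2, a leucine sensor (47.9 and 80.2), and Chac1, which breaks down glutathione (9.46 and 14.8). Those lower included the mitochondrial serine enzyme gene Shmt2 (759 and 504), the mTORC1 inhibitor Ddit4 (60.3 and 48.4) and the asparagine synthetase gene Asns (408 and 328). Atf4 itself was lower (523 and 453 CPM, log2 fold change -0.21), and the serine synthesis gene Phgdh did not pass (500 and 519), though it did without LM2 replicate 3 (adjusted p = 0.0248 by edgeR). Sesn2 lies on chromosome 4 and Shmt2 and Ddit4 on chromosome 10, whose median log2 fold change was -0.33.

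Of 34 genes that relay amino acids to mTORC1, 32 were tested, and 13 were higher, 10 lower and 9 did not pass. The Rag GTPase genes Rragc (91.9 CPM in Parental and 148 in LM2) and Rraga (52.0 and 82.4), which recruit mTORC1 to lysosomes, were among the higher ones, and both lie on chromosome 4. The arginine sensor Castor1 (log2 fold change -0.44), the GATOR subunit Mios (-0.43) and the folliculin gene Flcn (-0.39) were among the lower ones. Seh1l, a nucleoporin that is also a GATOR subunit, did not pass (153 and 159 CPM), though it did without LM2 replicate 3 (adjusted p = 0.00577 by edgeR). The 22 amino acid carriers of other families gave 16 tested genes, 1 higher, 6 lower and 9 that did not pass. Lower ones included the mitochondrial ornithine carrier Slc25a15 (47.4 CPM in Parental and 26.7 in LM2, on chromosome 8) and the aspartate and glutamate carriers Slc25a12 (84.8 and 56.2) and Slc25a13 (log2 fold change -0.18). Slc17a7 was also lower, at a low level (1.13 CPM in Parental and 0.353 in LM2, log2 fold change -1.655). The single higher one, Slc15a3, a lysosomal peptide carrier, was low too (0.0890 and 0.514 CPM). Slc15a3 reached the filter on low counts through the LM2 libraries alone. Mfsd12, a lysosomal cysteine carrier, did not pass (47.8 and 47.0).

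All 13 enzyme genes of glutamine, glutamate and aspartate were tested, with 2 higher, 8 lower and 3 that did not pass, and a median log2 fold change of -0.13. The glutaminase gene Gls2 (12.3 CPM in Parental and 3.25 in LM2), the mitochondrial aspartate aminotransferase Got2 (511 and 329) and the argininosuccinate lyase Asl (26.1 and 15.1) were lower. The cytosolic aminotransferase Got1 (log2 fold change 0.21) and the glutamate dehydrogenase Glud1 (0.09) were higher. Gls2 lies on chromosome 10 and Got2 on chromosome 8.

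Glutathione, whose synthesis uses the cystine brought in by xCT, had a list of 12 genes that also holds genes of its breakdown and recycling. Of these 10 were tested, with 3 higher, 5 lower and 2 that did not pass. Among the synthesis genes, the glutathione synthetase Gss was lower (log2 fold change -0.41). The rate-limiting ligase subunit Gclc did not pass (146 CPM in Parental and 145 in LM2). Among the genes of breakdown and recycling, Chac2 (-0.40) and Ggct (-0.36) were lower. Oplah, a 5-oxoprolinase (9.68 CPM in Parental and 16.6 in LM2), and Chac1 were higher. Ggt5, also higher, was low (0.215 and 1.72 CPM) and reached the filter on low counts through the LM2 libraries alone. Branched-chain amino acid breakdown gave 3 higher, 5 lower and 5 that did not pass of 13. The cytosolic aminotransferase Bcat1, on chromosome 6, was the largest fall (406 and 266 CPM), followed by Acad8 (log2 fold change -0.22) and Ivd (-0.15). Asns, Mios, Slc25a13 and Ggct, all lower, also lie on chromosome 6, as do the higher genes Slc6a6 and Mxd1. The median log2 fold change of chromosome 6 was -0.18, and 49.4% of its tested genes were called lower. With effective lengths as an offset Acad8 did not pass (-0.20, adjusted p = 0.0772). Bckdha (0.35), Mccc2 (0.27) and the kinase Bckdk (0.11) were higher, the last with an adjusted p of 0.0481 by edgeR that was lost in 8 settings, and Dld did not pass.

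Of 12 genes of the Myc network 11 were tested, and 7 were higher, 2 lower and 2 did not pass, with a median log2 fold change of 0.29. Myc, a transcription factor that raises carriers such as Slc7a5 and Slc1a5 in other systems, averaged 573 CPM in Parental and 701 in LM2 (log2 fold change 0.29, adjusted p = 2.72e-10 by edgeR). Its antagonists Mxd4 (10.7 and 22.7 CPM), Mxd1 (log2 fold change 0.66) and Mxi1 (0.50) were also higher, Mga was lower (-0.26), and Mlx did not pass.

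**Figure D5:**
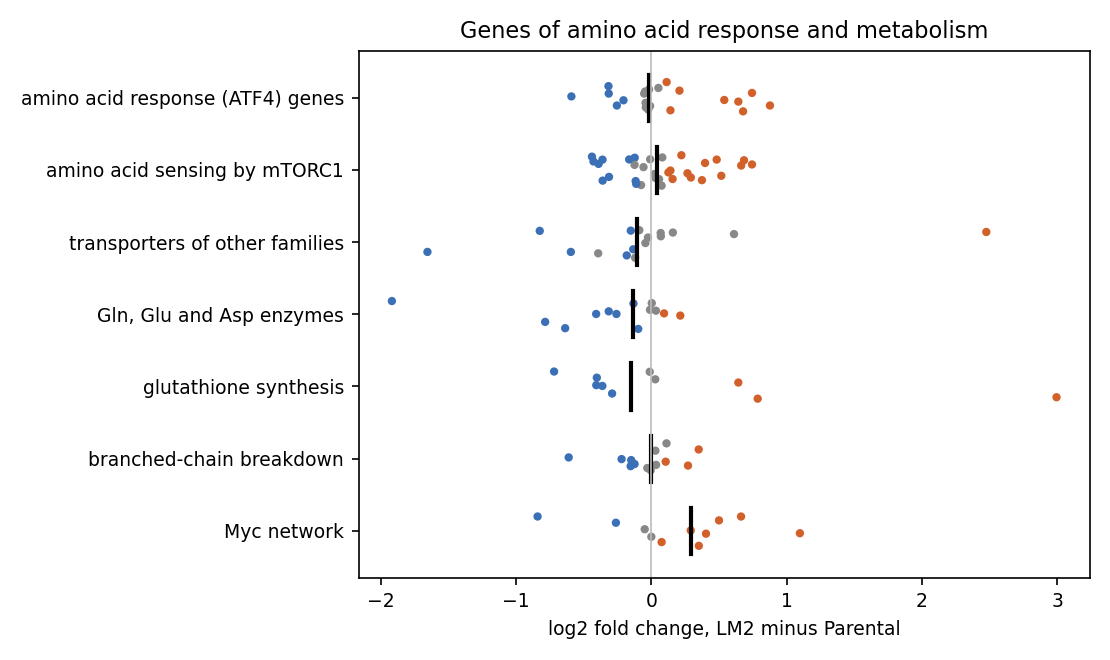
Log2 fold change, LM2 minus Parental, of each tested gene in the 7 lists, with 1 point per gene (orange higher, blue lower, grey did not pass) and a black bar at the median of the list. The medians of 6 lists lie between -0.15 and 0.04, and that of the Myc network at 0.29.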

How the data were processed

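RNA from 3 Parental and 3 LM2 libraries was compared, with groups and replicate numbers from the sample titles. The authors deposited estimated counts and TPM per transcript, made with kallisto 0.46.2 against GRCm39 per the submitters' processing notes, with transcript lengths and effective lengths in bases. The authors also deposited log2 fold changes per gene symbol; their log base and direction were read from closeness to the values computed here. The sources used here give neither the transcript set nor the strand setting. Reads from genes that overlap, or lie antisense, therefore cannot be told apart, and kallisto divides reads among transcripts with shared sequence.

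Transcripts were assigned to genes with GENCODE M21 (116408 of 117486, 99.1%), and the unmatched ones, with 0.426% to 0.448% of the counts of a library, were left out. Per gene, estimated counts were added up, then rounded to whole numbers, and TPM were added up. Genes were filtered with filterByExpr (about 0.269 CPM), scaled with TMM and tested with edgeR 4.0.16 in R 4.3.3 (robust quasi-likelihood fit, LM2 minus Parental, no covariate). Standard errors were derived from each fold change and F statistic. Alternatives were limma 3.58.1 (voom), DESeq2 1.42.0, RLE factors, library totals alone, no filter and a filter of 1 CPM in 3 libraries. Others were protein-coding transcripts alone, mean effective lengths per gene as an offset, the replicate number as a block and each replicate left out. The tests were also run on counts simulated from the means and dispersion of these data, with a change given to few genes. In the real data most tested genes were called, so that run cannot check the tests at such a share. Promoter windows came from RefSeq. Members, lists and alternatives were chosen with earlier results of these data known. Every tested member but 1 is named, and that member and 1 list gene are not reported here. From each list the text takes up to 3 called genes per direction, by size of change among those that reached 5 CPM in either line, and the most abundant gene that did not pass. Atf4, Myc, Ggt5, Slc15a3 and Slc17a7 were added outside that rule.

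Libraries of a line differed beyond sampling noise (chi-square over degrees of freedom 3.09 to 7.52). Exact intervals on counts cover counting error only.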

Additional observations from a re-analysis of the deposited data

How the results depend on the processing

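Over the alternatives, 15 to 20 of the tested members passed, with 9 to 12 higher and 5 to 9 lower in LM2, against 18, 11 and 7 in the fit reported. Of the 11 higher members 7, and of the 7 lower members 4, kept direction and call in every alternative that tested them; the filter of 1 CPM in 3 libraries left out Slc1a7. The exceptions were Slc1a5, Slc38a3, Slc7a11 and Slc7a4, and Slc36a1, Slc38a7 and Slc38a9, with values given beside the genes. The lowest count of members, 15, came with effective lengths as an offset and without Parental replicate 1 or 3. The offset put Slc38a9 at 0.006 on the log2 scale and cut the calls in the branched-chain list from 8 to 5. The cause was not tested. With CPM in place of TPM the share of Slc7a5 in the sum over the members in Parental was 19.0%, against 19.1%.

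Some genes that did not pass changed sign. Slc7a1 was at 0.003 with DESeq2, RLE size factors and library totals and 0.005 with a filter of 1 CPM in 3 libraries. Slc38a10 was at -0.015 with no filter and -0.006 with protein-coding transcripts, and Slc43a2 at -0.013 with no filter. Dld was at 0.001 with the 1 CPM filter and 0.002 with effective lengths. With each replicate left out in turn, the log2 fold change ran from -0.075 to 0.707 for Slc7a2, from -0.034 to 0.047 for Slc43a2, from -0.029 to 0.017 for Slc7a1 and from -0.017 to 0.014 for Slc38a10. It ran from -0.032 to 0.005 for Dld. Leaving out the transcript Slc38a6-208, an alternative chosen after seeing the data, put Slc38a6 at 0.365, now past the threshold.

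Samples with the same replicate number did not deviate together (correlations of -0.078, 0.045 and 0.015 across genes), so the numbers were not taken to pair the samples. With the replicate number as a block, 18 members and 8250 genes were called. Counts over all genes ranged from 6985 to 8596. Genes under 1 CPM, 7 of the tested members, rest on few counts.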
